A study of Homo sapiens with 30 samples.

Results

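CD44, CD24, CD109, PROM1, ALDH1A1, ALDH1A3, ITGA6 and EPCAM are 8 genes widely used to mark tumour-initiating cells, and their messenger RNA was followed in SUM190, an established human line of inflammatory breast cancer. The genes were picked by symbol, with earlier results of these data known. Of the 8, 7 had a row among the 20114 gene symbols of the deposited table, and all 7 were among the 12743 genes expressed highly enough to be tested. CD24 was not analysed here. The study sequenced 30 libraries in 15 groups of 2. Parental SUM190 cells made up 7 groups: the vehicle DMSO, paclitaxel at 2.5 nM, paclitaxel at 10 nM, doxorubicin at 65 nM, doxorubicin at 1 µM, ruxolitinib at 15 µM, and ruxolitinib together with 2.5 nM paclitaxel. A doxorubicin-resistant derivative made up 3 groups, in DMSO or in doxorubicin at 350 nM or 1 µM. A paclitaxel-resistant derivative made up 5 groups, in DMSO, in paclitaxel at 6.5 or 10 nM, in ruxolitinib at 15 µM, or in ruxolitinib together with 6.5 nM paclitaxel. All groups were seeded alike, treated 24 h later and harvested after 72 h of treatment. In both combinations the label gives ruxolitinib as 15 nM, not 15 µM, so the single agent and the combinations are reported apart. Each resistant state is represented by 1 derived line, and the labels do not say how it was selected or whether it is a clone.

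CD44 is the cell-surface receptor for hyaluronan, and breast tumour cells that carry much CD44 and little CD24 have long been described as enriched for tumour-initiating capacity. CD109 is a GPI-anchored protein that binds transforming growth factor-beta and its receptors. PROM1 encodes CD133, a membrane glycoprotein of cell protrusions. ITGA6 is the integrin alpha 6 chain (CD49f), which binds laminin, and EPCAM is an epithelial adhesion molecule. ALDH1A1 and ALDH1A3 are not surface proteins but cytosolic enzymes that oxidise retinaldehyde to retinoic acid, and they contribute to the aldehyde dehydrogenase activity by which such cells are sorted. Doxorubicin is an anthracycline that poisons topoisomerase II, paclitaxel stabilises microtubules, and ruxolitinib inhibits the kinases JAK1 and JAK2.

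Libraries held 18443749 to 32669995 reads assigned to genes. Levels are CPM, reads relative to library size after scaling between libraries, not divided by gene length, so levels of different genes are not compared, and for counting error alone a level of 0 leaves room for 3 reads, or 0.09465 to 0.1627 CPM by library. Replicates correlated across genes at a Pearson r of 0.9926 to 0.9986. Differences between replicates followed transcript GC content in several groups, most in parental DMSO, with a Spearman rho of 0.79 across genes. In parental cells rho was -0.72 at the higher and 0.56 at the lower doxorubicin dose. It was -0.664 in parental cells at the higher paclitaxel dose and 0.678 in parental cells in ruxolitinib with paclitaxel. In doxorubicin-resistant cells it was -0.679 at the lower doxorubicin dose and -0.0148 at the higher. The part of GC content in the results below was not tested beyond the GC correction given in the closing section. Nothing in the labels states that replicates came from separate cultures, so the p-values measure only how much these libraries vary, and that variation may be technical. The libraries expressed genes of the ERBB2 amplicon that marks SUM190, with ERBB2 at 1516 to 3736 CPM and GRB7 at 257 to 887 CPM, whereas ESR1 stayed at 0.417 to 1.96 CPM and PGR was at 0 in 17 libraries. The summed CPM of 7 markers of stromal, endothelial and immune cells was 15.9 to 44.8, with CD68 at 6.77 to 36.5 CPM and COL1A1 at 4.31 to 12 CPM. That sum was 24.8 to 27 in parental, 31.1 to 33.8 in doxorubicin-resistant and 17.7 to 18.4 in paclitaxel-resistant cells in DMSO, CD3E was at 0 in 24 libraries and COL3A1 in 20, and the part of such cells in the results was not tested.

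The first question is how the resistant lines differ from parental cells before any drug. In DMSO the doxorubicin-resistant cells had much less CD44 and CD109, less ALDH1A1 and ALDH1A3, and more PROM1 than parental cells. The paclitaxel-resistant cells had less CD44, ALDH1A3 and ITGA6 and more CD109, PROM1 and ALDH1A1. EPCAM was called in neither. A call means an adjusted p under 0.05 in limma, by the Benjamini-Hochberg method. Of the 7 genes, 5 were called between doxorubicin-resistant and parental cells (1 higher, 4 lower), where 27.5% of all genes tested were called. Between paclitaxel-resistant and parental cells 6 of 7 were called (3 higher, 3 lower), against 32.6% of all genes. Between the resistant lines 3 of 7 were called, all lower in doxorubicin-resistant cells, against 34.0% of all genes. The median log2 fold change of the 7 was -0.61, 0.07 and -0.14 in these comparisons, beside -0.01, -0.01 and 0.00 over all genes. Both contrasts with parental cells use the same parental DMSO libraries and are not independent. Over the whole study, 57 differences between 2 groups were called for the 7 genes, and in all 57 the libraries of the groups did not overlap. Of 69 that were not called, 36 did not overlap either. The share without overlap was not counted over all genes, so neither number sets these genes apart or adds to the calls. With bulk RNA, a smaller share of cells that express a gene cannot be told apart from less RNA per cell.

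**Figure D1:**
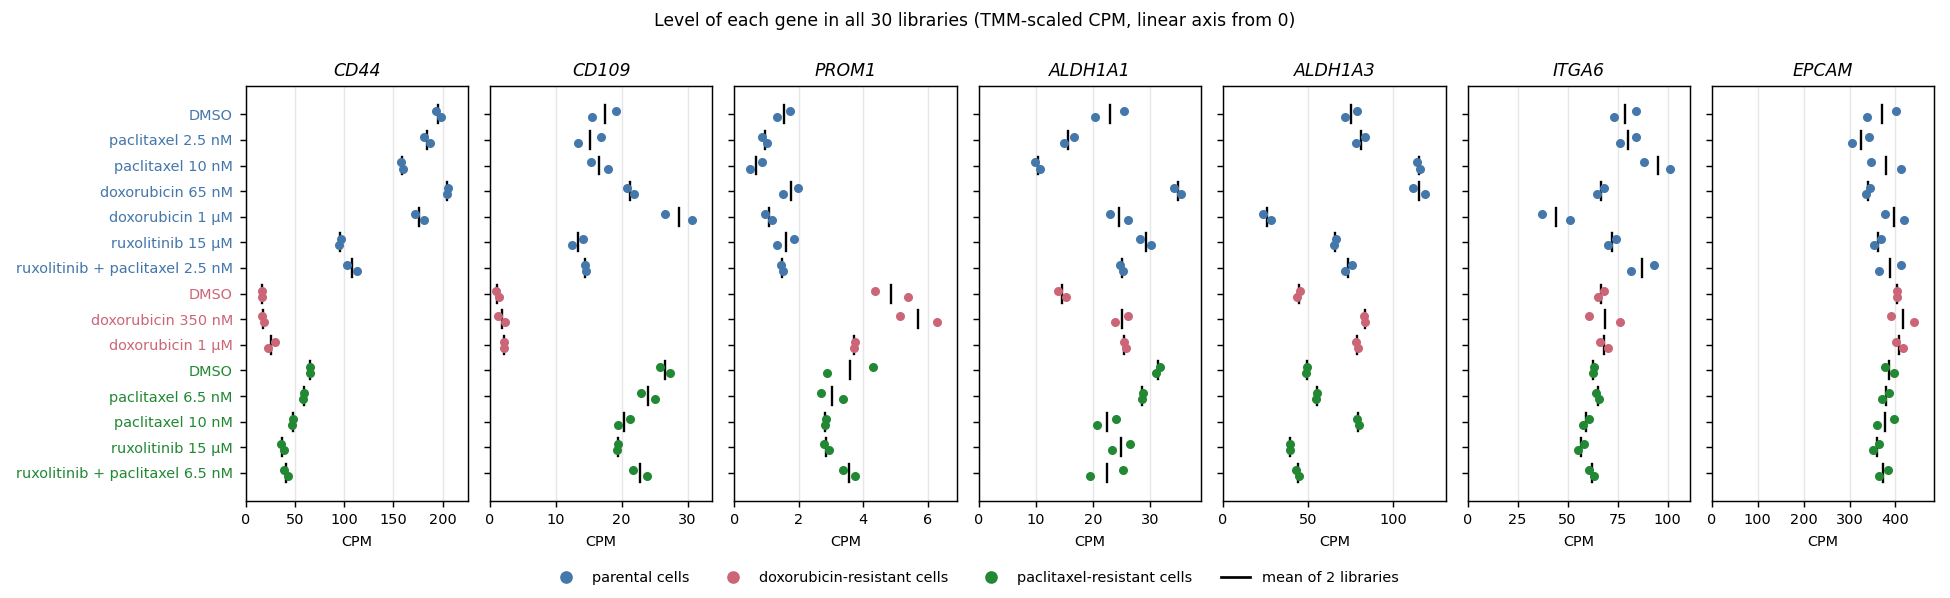
Level of each of the 7 genes in all 30 libraries. The horizontal axis is CPM on a linear scale from 0, each row is a group (blue parental, red doxorubicin-resistant, green paclitaxel-resistant), points are single libraries and the black bar is the mean of 2. CD44 separates the lines without overlap (94.3 to 205 CPM in parental, 35.8 to 65.4 in paclitaxel-resistant and 16.4 to 29.7 in doxorubicin-resistant cells), and CD109 is at most 2.35 CPM in the doxorubicin-resistant libraries.

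CD44 showed the clearest order of lines. In DMSO its level was 193 and 198 CPM in the parental replicates, 65.1 and 65.4 CPM in paclitaxel-resistant cells and 16.4 and 17 CPM in doxorubicin-resistant cells. Every parental library of the study, at 94.3 CPM or more, exceeded every paclitaxel-resistant library, at 65.4 CPM or less, and these in turn exceeded every doxorubicin-resistant library, at 29.7 CPM or less. Mean CD44 was 11.7-fold lower in doxorubicin-resistant than in parental cells, a log2 fold change of -3.47 ± 0.09 (SE; adjusted p = 3.25e-18). It was 2.99-fold lower in paclitaxel-resistant cells (-1.57 ± 0.09, adjusted p = 5.77e-12). The resistant lines differed from each other by -1.90 ± 0.09 (adjusted p = 1.23e-13). Fold changes here and below are on the log2(CPM + 1) scale, which understates the change of low genes. The lowest CD44 count was 420 reads, so depth did not limit these values, but they are sums over the gene and do not separate the standard and variant isoforms of CD44.

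The order of CD44 over the 15 groups, by group mean, ran from parental cells in 65 nM doxorubicin (204 CPM), DMSO (195 CPM) and 2.5 nM paclitaxel (184 CPM) through 1 µM doxorubicin (176 CPM) and 10 nM paclitaxel (159 CPM) to ruxolitinib with paclitaxel (108 CPM) and ruxolitinib alone (95.6 CPM). The paclitaxel-resistant groups followed, from DMSO (65.2 CPM) over 6.5 nM paclitaxel (58.8 CPM), 10 nM paclitaxel (47.8 CPM) and ruxolitinib with paclitaxel (41 CPM) to ruxolitinib alone (37.3 CPM). The doxorubicin-resistant groups came last, at 26 CPM in 1 µM doxorubicin, 17.5 CPM in 350 nM and 16.7 CPM in DMSO. Neighbours in this order overlapped in 3 places, between parental cells in 2.5 nM paclitaxel and in 1 µM doxorubicin, between paclitaxel-resistant cells in ruxolitinib with and without paclitaxel, and between doxorubicin-resistant cells in 350 nM doxorubicin and in DMSO.

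CD44 lies on the plus strand of chromosome 11 (chr11:35138870-35232402, GRCh38, GENCODE annotation), where the antisense gene CD44-AS1 overlaps it. The sources used here do not say whether the authors' counting used strand. The genes around it were mostly unlike it. Of the 10 nearest tested genes, 1 was called higher and 1 lower in doxorubicin-resistant cells, against 27.5% of all genes. Their log2 fold changes ran from -0.35 to 0.29, with a median of 0.04. In paclitaxel-resistant cells 2 of the 10 were called higher and 4 lower, against 32.6% of all genes. They ran from -0.75 (ABTB2) to 0.34 (CAT), with a median of -0.19. Because CD44 and CD109 had the largest differences between lines, and ALDH1A3 the largest difference in drug response, the RefSeq sequence around the start site of each (250 bases before to 50 after, GRCh38.p14, 5′ to 3′ on the gene's strand) is shown, with every GC box (GGGCGG on either strand) in capitals. RefSeq entries matched 7 of the 8 genes, all but EPCAM.
CD44 (chr11:35138921-35139220, + strand): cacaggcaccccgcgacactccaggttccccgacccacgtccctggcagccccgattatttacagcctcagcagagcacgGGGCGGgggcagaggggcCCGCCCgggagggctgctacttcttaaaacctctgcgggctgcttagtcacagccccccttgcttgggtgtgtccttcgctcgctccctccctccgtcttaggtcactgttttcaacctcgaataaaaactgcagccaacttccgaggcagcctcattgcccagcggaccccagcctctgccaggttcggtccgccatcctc
CD109 (chr6:73695953-73696252, + strand): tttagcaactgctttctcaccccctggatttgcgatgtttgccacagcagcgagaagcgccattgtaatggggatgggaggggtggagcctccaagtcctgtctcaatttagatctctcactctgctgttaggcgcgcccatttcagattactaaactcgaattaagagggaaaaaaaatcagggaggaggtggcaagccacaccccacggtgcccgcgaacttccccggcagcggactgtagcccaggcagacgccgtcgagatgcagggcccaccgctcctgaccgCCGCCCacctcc
ALDH1A3 (chr15:100879581-100879880, + strand): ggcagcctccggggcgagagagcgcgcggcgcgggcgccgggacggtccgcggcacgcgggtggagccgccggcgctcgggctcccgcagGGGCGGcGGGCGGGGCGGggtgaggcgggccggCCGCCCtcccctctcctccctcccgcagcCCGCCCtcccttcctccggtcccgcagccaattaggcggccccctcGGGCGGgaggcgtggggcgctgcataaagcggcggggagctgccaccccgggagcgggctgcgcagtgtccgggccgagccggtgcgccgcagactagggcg
The CD44 window holds 2 GC boxes, the CD109 window 1 and the ALDH1A3 window 6. A GC box is present in 44.6% of the 27305 RefSeq promoter windows of this length. These 3 windows are 63.3%, 57.7% and 81.7% G and C. None of the 7 windows holds the STAT motif TTCNNNGAA, found in 7.88% of all windows on either strand, or the AP-1 motif TGANTCA, found in 7.76%. The E-box CACCTG, present in 20.6% of all windows, occurs in the windows of PROM1 (2 matches), ITGA6 (2 matches) and ALDH1A1 (1 match). These matches describe the letters of the windows and not sites in use.

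Genes that make, bind or cut CD44 and its ligand were called in both resistant lines, more of them lower than higher. Of 23 genes for hyaluronan synthesis and turnover, CD44 ligands, ERM proteins, sheddases and splicing regulators, 19 were tested. In doxorubicin-resistant cells 1 was higher and 6 lower (median -0.21), among them the hyaluronan synthase HAS3 (-0.69 ± 0.13, adjusted p = 0.000169) and NF2, which encodes the ERM-related protein merlin (-0.49 ± 0.15, adjusted p = 0.0132). The protease MMP7 was the 1 higher (0.58 ± 0.14, adjusted p = 0.00208), from a mean of 1.15 CPM to 2.22 CPM. In paclitaxel-resistant cells 3 were higher and 8 lower (median -0.15). Over all genes tested 27.5% were called in doxorubicin-resistant and 32.6% in paclitaxel-resistant cells. The hyaluronan-depolymerising protein CEMIP, listed as KIAA1199, was higher there, at 20.9 ± 1.02 CPM (SD, n = 2) against 4.8 ± 1.06 CPM in parental cells (log2 1.93 ± 0.12, adjusted p = 8.57e-12). MMP7 was also higher in these cells (1.24 ± 0.14, adjusted p = 1.62e-07).

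**Figure D2:**
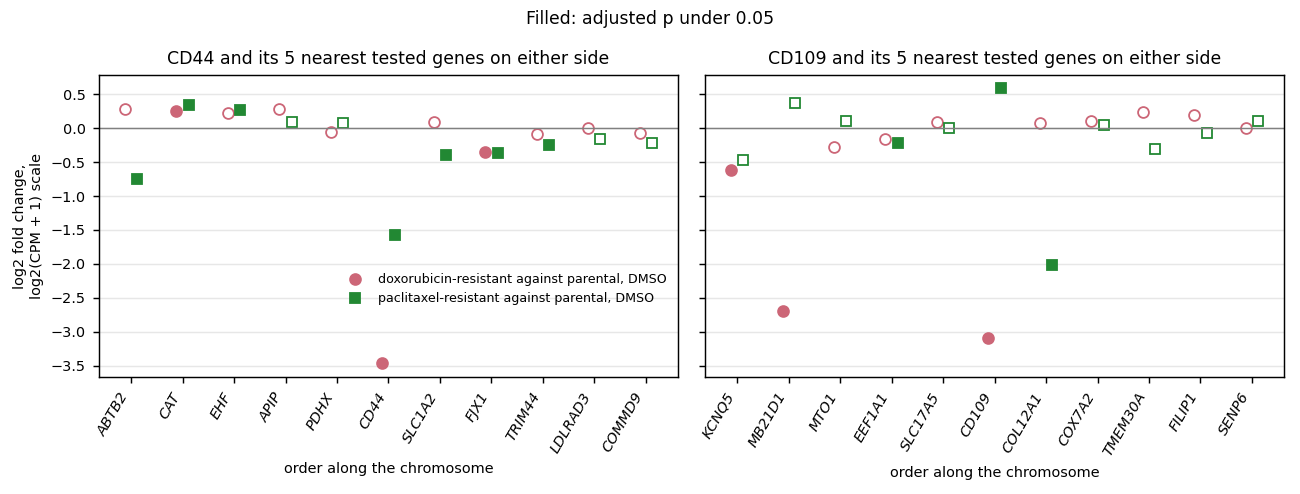
CD44 and CD109 with the 5 nearest tested genes on either side, in chromosome order along the horizontal axis (ordinal, not to distance). The vertical axis is the log2 fold change against parental cells in DMSO, circles are doxorubicin-resistant and squares paclitaxel-resistant cells, and filled symbols passed the test. CD44 stands at -3.47 among neighbours between -0.35 and 0.29, whereas beside CD109 (-3.09) the gene MB21D1 was at -2.69.

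CD109 separated the doxorubicin-resistant line from the other lines. Its level in DMSO was 0.99 and 1.31 CPM in doxorubicin-resistant cells, from 26 and 34 reads. It was 19.2 and 15.5 CPM in parental cells and 25.8 and 27.3 CPM in paclitaxel-resistant cells. No doxorubicin-resistant library in any treatment exceeded 2.35 CPM, and no other library fell below 12.4 CPM. Mean CD109 was 15.1-fold lower in doxorubicin-resistant than in parental cells (log2 -3.09 ± 0.15, adjusted p = 1.57e-13) and 23.1-fold lower than in paclitaxel-resistant cells (-3.68 ± 0.15, adjusted p = 2.6e-15). Paclitaxel-resistant cells had 1.53-fold more CD109 than parental cells (0.59 ± 0.15, adjusted p = 0.00313), which did not pass without parental DMSO replicate 2 (0.45, adjusted p = 0.0605).

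CD109 lies on chromosome 6 (chr6:73695785-73828316, GRCh38, GENCODE annotation, plus strand). The tested gene 4 places before it, MB21D1 (cGAS, a sensor of DNA in the cytosol), had a similar pattern, with a log2 fold change of -2.69 in doxorubicin-resistant cells (adjusted p = 3.61e-11) and 0.37 in paclitaxel-resistant cells (adjusted p = 0.108). KCNQ5, 5 places before, was also lower in doxorubicin-resistant cells (-0.61, adjusted p = 0.0192), and the 3 genes between MB21D1 and CD109 (MTO1, EEF1A1 and SLC17A5) were at -0.27 to 0.09 and not called. The next gene after CD109, the collagen COL12A1, was at -2.01 in paclitaxel-resistant cells (adjusted p = 6.58e-14) and 0.08 in doxorubicin-resistant cells (adjusted p = 0.571). Of 12 genes of the transforming growth factor-beta pathway, on which CD109 acts, 1 was higher and 5 lower in doxorubicin-resistant cells, with a median of 0.03 that has the opposite sign to most of the calls. The lower ones included the receptor TGFBR2 (62.1 ± 0.0759 CPM against 105 ± 5.41 CPM in parental cells, log2 -0.75 ± 0.07, adjusted p = 4.83e-09) and the signal transducer SMAD3 (-0.60 ± 0.07, adjusted p = 3.6e-07). In paclitaxel-resistant cells 1 was higher and 3 lower (median 0.01). Over all genes tested 27.5% were called in doxorubicin-resistant and 32.6% in paclitaxel-resistant cells, and the latter is near the share of this list.

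PROM1 ran opposite to CD44. In DMSO it was 1.74 and 1.32 CPM in parental cells, 4.38 and 5.38 CPM in doxorubicin-resistant cells and 4.3 and 2.87 CPM in paclitaxel-resistant cells. All 16 resistant libraries lay above all 14 parental ones, whose highest was 1.99 CPM, against a lowest of 2.68 CPM in the paclitaxel-resistant and 3.71 CPM in the doxorubicin-resistant libraries. PROM1 was 3.19-fold higher in doxorubicin-resistant cells (log2 1.22 ± 0.16, adjusted p = 1.79e-06) and 2.34-fold higher in paclitaxel-resistant cells (0.84 ± 0.16, adjusted p = 0.000169). The resistant lines did not differ at the threshold (0.37, 95% interval 0.05 to 0.69, adjusted p = 0.0688), but did without paclitaxel-resistant DMSO replicate 1 (0.60, adjusted p = 0.0156), in a fit of only these lines (adjusted p = 0.0454) and after correction for GC content and length (0.40, adjusted p = 0.0283). PROM1 values rest on 10 to 142 reads per library. FGFBP2, which lies within the PROM1 locus on chromosome 4 on the same strand, differed by -0.45 in doxorubicin-resistant and 3.08 in paclitaxel-resistant cells (adjusted p = 0.00406 and 1.62e-15). How reads in the overlap were assigned is not given in the sources used here, so PROM1 is uncertain to that extent.

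The aldehyde dehydrogenases did not move as a pair. ALDH1A3 was 79 and 71.6 CPM in parental cells, 45.2 and 43.7 CPM in doxorubicin-resistant cells and 49.5 and 48.9 CPM in paclitaxel-resistant cells in DMSO. It was lower in both resistant lines, by -0.75 ± 0.08 (adjusted p = 5.3e-08) and -0.60 ± 0.08 (adjusted p = 1.16e-06), and their own difference was not called (-0.14, 95% interval -0.30 to 0.01, adjusted p = 0.151). ALDH1A1 was 25.5 and 20.4 CPM in parental cells, 13.9 and 15.3 CPM in doxorubicin-resistant cells and 31.7 and 31 CPM in paclitaxel-resistant cells. It was thus lower in the first resistant line (-0.61 ± 0.11, adjusted p = 0.00022) and higher in the second (0.44 ± 0.11, adjusted p = 0.00413), and the 2.14-fold gap between them was called (-1.05 ± 0.11, adjusted p = 1.01e-07). The difference in paclitaxel-resistant cells rested on parental DMSO replicate 2, without which it was 0.29 (adjusted p = 0.105).

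ALDH1A3 lies on chromosome 15 (chr15:100877714-100916626, GRCh38, plus strand), and 6 of the 10 nearest tested genes were lower and 0 higher in paclitaxel-resistant cells, against 32.6% of all genes called in either direction, with a median of -0.46 and a range of -0.87 to 0.02. Those called were ADAMTS17, LINS, ASB7, CHSY1, VIMP and PCSK6. In doxorubicin-resistant cells 2 of the 10 were lower, against 27.5% of all genes called, with a median of -0.09. Of 27 other aldehyde dehydrogenases and retinoic acid genes, 19 were tested. Of these 3 were higher and 4 lower in doxorubicin-resistant cells (median -0.04), against 27.5% of all genes. In paclitaxel-resistant cells 6 were higher and 4 lower (median 0.09), against 32.6%. ALDH3A1, which oxidises aromatic and fatty aldehydes, was 381 ± 8.41 CPM in paclitaxel-resistant cells against 89.5 ± 20.4 CPM in parental cells (SD, n = 2), a log2 difference of 2.10 ± 0.12 (adjusted p = 2.39e-12), and it was 139 ± 13.6 CPM in doxorubicin-resistant cells (0.64 ± 0.12, adjusted p = 0.00023). ALDH3A2, a fatty aldehyde dehydrogenase, was higher in doxorubicin-resistant cells (0.54 ± 0.08, adjusted p = 1.25e-05). CRABP2, which carries retinoic acid to its nuclear receptors, was lower in doxorubicin-resistant cells (-0.92 ± 0.15, adjusted p = 3.61e-05).

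ITGA6 differed little between lines. It was 84.1 and 73.1 CPM in parental cells, 68.1 and 65.4 CPM in doxorubicin-resistant cells and 63.1 and 62.5 CPM in paclitaxel-resistant cells. The parental replicates spanned more than the gap between the resistant lines. The difference was called for paclitaxel-resistant cells (-0.32 ± 0.12, adjusted p = 0.0383) and not for doxorubicin-resistant cells (-0.23, 95% interval -0.47 to 0.01, adjusted p = 0.152), where it passed only after correction for GC content and length (-0.25, adjusted p = 0.00431). The former was lost without parental DMSO replicate 1 (-0.22, adjusted p = 0.23), without either paclitaxel-resistant DMSO replicate (adjusted p = 0.123 and 0.137) and with no filter on low genes (adjusted p = 0.09).

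Of 18 integrin, laminin and hemidesmosome genes that work with ITGA6, 17 were tested. In doxorubicin-resistant cells 0 were higher and 5 lower (median -0.16), where 27.5% of all genes were called, so this share was near the background. In paclitaxel-resistant cells 1 was higher and 9 lower (median -0.35), against 32.6% of all genes. ITGB4, the beta chain that pairs with ITGA6 in hemidesmosomes, was lower in paclitaxel-resistant cells (24 ± 1.9 against 51.6 ± 12 CPM, SD, n = 2, log2 -1.06 ± 0.12, adjusted p = 3.72e-07) and stood at 50.1 ± 1.01 CPM in doxorubicin-resistant cells. ITGA5, the fibronectin receptor chain, was lower in paclitaxel-resistant cells (-1.12 ± 0.11, adjusted p = 1.78e-08).

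EPCAM varied least of the 7 genes. It was 401 and 338 CPM in parental cells, 404 and 403 CPM in doxorubicin-resistant cells and 377 and 396 CPM in paclitaxel-resistant cells in DMSO. Over all 30 libraries it stayed between 306 and 441 CPM, and the highest group mean was 1.28-fold the lowest. The paclitaxel-resistant values lay inside the parental pair. The difference from parental cells was 0.13 for doxorubicin-resistant cells (95% interval -0.06 to 0.33, adjusted p = 0.337) and 0.07 for paclitaxel-resistant cells (-0.12 to 0.26, adjusted p = 0.613). Of 9 relatives and partners of EPCAM, 8 were tested. In doxorubicin-resistant cells 0 were higher and 1 lower (median 0.03), against 27.5% of all genes. In paclitaxel-resistant cells 5 were higher and 1 lower (median 0.30), against 32.6%. The tetraspanin CD9 was higher in paclitaxel-resistant cells (261 ± 2.3 against 177 ± 11.1 CPM, SD, n = 2, log2 0.56 ± 0.07, adjusted p = 9.27e-07). The adherens junction protein CDH1 was lower in doxorubicin-resistant cells (240 ± 4.6 against 327 ± 1.6 CPM, -0.45 ± 0.06, adjusted p = 3.37e-06).

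**Figure D3:**
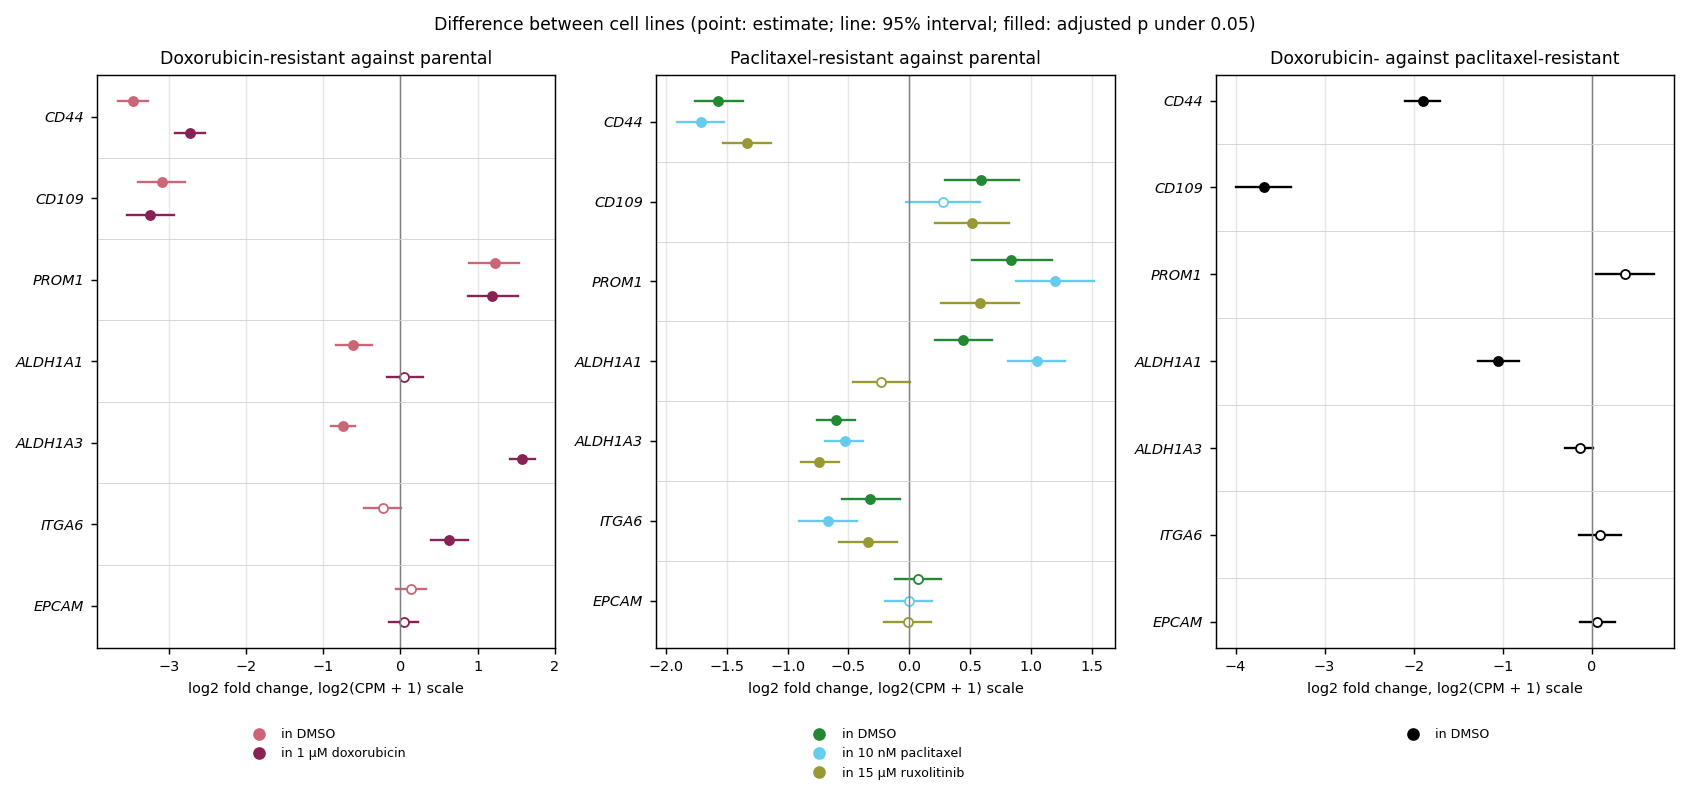
Differences between lines for the 7 genes. The horizontal axis is the log2 fold change on the log2(CPM + 1) scale (the scale differs between panels), points are estimates, lines are 95% intervals, and filled points passed an adjusted p of 0.05. CD44 was lower in both resistant lines under each treatment shown, while ALDH1A3 changes side between DMSO (-0.75) and 1 µM doxorubicin (1.58) in the doxorubicin-resistant contrast.

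Other genes used as markers of tumour-initiating or stem-like cells did not move as 1 block with CD44. Of 26, 20 were tested, with 3 higher and 5 lower in doxorubicin-resistant cells (median -0.09) and 5 higher and 9 lower in paclitaxel-resistant cells (median -0.24). Over all genes tested 27.5% were called in the former and 32.6% in the latter, the background for each list in this paragraph. NT5E, the ectonucleotidase CD73, was 61.7 ± 5.99 CPM in parental, 27.1 ± 0.273 CPM in doxorubicin-resistant and 16.2 ± 0.417 CPM in paclitaxel-resistant cells (SD, n = 2), differences of -1.16 ± 0.10 and -1.86 ± 0.10 (adjusted p = 2.43e-09 and 5.01e-13). ENG, a transforming growth factor-beta co-receptor, was lower in paclitaxel-resistant cells (0.373 ± 0.0693 against 2.32 ± 0.364 CPM, -1.27 ± 0.17, adjusted p = 1.95e-06). Markers of epithelial state moved beside these genes, and their part was not tested. The summed CPM of 9 basal markers was 924 to 977 in parental, 484 to 509 in doxorubicin-resistant and 580 to 584 in paclitaxel-resistant cells in DMSO, and that of 10 mesenchymal markers was 63.2 to 64.8, 45.4 to 50.1 and 16.8 to 18.6. Of 7 basal markers tested, 1 was higher and 6 lower in doxorubicin-resistant cells (median -0.96), with KRT6A at -1.10 ± 0.15, TP63 at -1.14 ± 0.14 and CAV1 at -1.09 ± 0.09 (adjusted p = 2.9e-06, 1.28e-06 and 1.77e-09). In paclitaxel-resistant cells 1 was higher and 3 lower (median -0.08), with KRT6A at 16.7 ± 0.387 against 284 ± 29.7 CPM (-4.01 ± 0.15, adjusted p = 1.49e-15). KRT16, a keratin of activated epidermis, was also lower there (-1.84 ± 0.12, adjusted p = 1.35e-11). TP63 was the 1 higher there, at 14.2 ± 0.0499 against 8.84 ± 0.605 CPM (0.63 ± 0.14, adjusted p = 0.00133). CDH3 (-0.08) and EGFR (0.01) were not called in paclitaxel-resistant cells. Of 6 mesenchymal genes tested, 4 were lower and 0 higher in paclitaxel-resistant cells (median -1.10), among them the collagen crosslinker LOX (1.05 ± 0.466 against 10.9 ± 2.05 CPM, -2.54 ± 0.18, adjusted p = 1.2e-10), fibronectin, FN1 (8.54 ± 0.217 against 38.7 ± 1.35 CPM, -2.06 ± 0.12, adjusted p = 3.66e-12), and vimentin, VIM (-1.44 ± 0.28, adjusted p = 0.000311). In doxorubicin-resistant cells 1 was higher and 2 lower (median -0.32). Defining basal keratins were near 0 throughout, with KRT5 at most 1.5 CPM, KRT14 at most 0.931 CPM and KRT17 at 0 in 23 libraries, while 10 luminal markers summed to 5543 to 6760 CPM in parental, 5127 to 5224 CPM in doxorubicin-resistant and 4716 to 4855 CPM in paclitaxel-resistant cells in DMSO. Of 9 luminal markers tested, 0 were higher and 4 lower in doxorubicin-resistant cells (median -0.23), and 3 were higher and 4 lower in paclitaxel-resistant cells (median -0.14), with KRT8 at -0.49 ± 0.11 and -1.03 ± 0.11 (adjusted p = 0.00156 and 1.07e-07).

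Doxorubicin was tested in parental and doxorubicin-resistant cells. At 1 µM ALDH1A3 and ITGA6 fell and CD109 rose in parental cells, and ALDH1A3, ALDH1A1, CD44 and CD109 rose in doxorubicin-resistant cells. In parental cells 2 of 7 genes were called at 65 nM, both higher, against 11.2% of all genes. At 1 µM 3 of 7 were called (1 higher, 2 lower), against 75.8% of all genes, so their share was below the background. In doxorubicin-resistant cells 2 of 7 were called at 350 nM, both higher, against 3.81% of all genes, and 4 of 7 at 1 µM, all higher, against 39.1%. The lower doses differ between the lines and are not compared. Contrasts within a line share its DMSO libraries.

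ALDH1A3 gave the largest doxorubicin response. In parental cells it went from 79 and 71.6 CPM in DMSO to 112 and 119 CPM at 65 nM and to 23.4 and 28.2 CPM at 1 µM. The lower dose thus lay above both DMSO libraries and the higher dose below both, with log2 fold changes of 0.61 ± 0.08 (adjusted p = 2.03e-05) and -1.51 ± 0.08 (adjusted p = 1.75e-14). In doxorubicin-resistant cells it went from 45.2 and 43.7 CPM to 82.7 and 83.6 CPM at 350 nM and 78.3 and 79.4 CPM at 1 µM, rises of 0.89 ± 0.08 (adjusted p = 3.97e-07) and 0.81 ± 0.08 (adjusted p = 1.92e-08). The response to 1 µM differed between the lines by 2.33 ± 0.11 (adjusted p = 8.88e-14). At 1 µM the resistant cells therefore held 3.05-fold more ALDH1A3 than parental cells (1.58 ± 0.08, adjusted p = 1.75e-14), the reverse of the order in DMSO.

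ALDH1A1 rose at the lower doses in both lines. In parental cells it was 34.2 and 35.4 CPM at 65 nM against 25.5 and 20.4 CPM in DMSO (0.59 ± 0.11, adjusted p = 0.00154) and 23 and 26.2 CPM at 1 µM (0.10, 95% interval -0.13 to 0.34, adjusted p = 0.414). The 1 µM values overlapped those in DMSO. In doxorubicin-resistant cells it was 26.1 and 23.8 CPM at 350 nM and 25.4 and 25.7 CPM at 1 µM against 13.9 and 15.3 CPM (0.73 ± 0.11 and 0.77 ± 0.11, adjusted p = 0.000422 and 1.17e-05). The response to 1 µM was larger in the resistant line by 0.66 ± 0.16 (adjusted p = 0.00116).

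CD44 in doxorubicin-resistant cells was 29.7 and 22.3 CPM at 1 µM against 16.4 and 17 CPM in DMSO, a rise of 0.60 ± 0.09 (adjusted p = 2.63e-05), and 16.4 and 18.6 CPM at 350 nM (0.06, adjusted p = 0.833). The replicates at 1 µM were unequal, but both lay above DMSO, and the rise stayed called at 0.40 to 0.80 over all alternatives. In parental cells CD44 was 172 and 181 CPM at 1 µM (-0.15, 95% interval -0.34 to 0.05, adjusted p = 0.16) and 205 and 204 CPM at 65 nM (0.07, adjusted p = 0.696). The response to 1 µM differed between lines by 0.74 ± 0.13 (adjusted p = 5.07e-05). CD44 nonetheless remained 6.78-fold lower in doxorubicin-resistant than in parental cells at 1 µM (-2.73 ± 0.09, adjusted p = 6.25e-17).

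CD109 rose in both lines at 1 µM, and the responses did not differ at the threshold (-0.16, 95% interval -0.59 to 0.27, adjusted p = 0.536). It went to 26.6 and 30.7 CPM in parental cells (0.70 ± 0.15, adjusted p = 0.000177) and to 2.15 and 2.09 CPM in doxorubicin-resistant cells (0.54 ± 0.15, adjusted p = 0.00559). The latter was lost without doxorubicin-resistant DMSO replicate 1 (0.43, adjusted p = 0.0793), and was 0.89 in a fit to reads. At 350 nM it was 1.2 and 2.35 CPM (0.34, adjusted p = 0.242), which passed only without replicate 1 of that dose (0.64, adjusted p = 0.0222). At 65 nM in parental cells it was 20.8 and 21.9 CPM (0.29, adjusted p = 0.218), and 0.42 (adjusted p = 0.00856) after correction for GC content and length.

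ITGA6 fell in parental cells at 1 µM, to 37.4 and 51.1 CPM from 84.1 and 73.1 CPM (-0.83 ± 0.12, adjusted p = 7.07e-07). In doxorubicin-resistant cells it stayed at 66.2 and 70.2 CPM beside 68.1 and 65.4 CPM in DMSO (0.03, 95% interval -0.21 to 0.27, adjusted p = 0.861). The difference of responses was 0.86 ± 0.16 (adjusted p = 9.56e-05). PROM1 was 0.964 and 1.18 CPM in parental cells (-0.29, adjusted p = 0.0987) and 3.75 and 3.71 CPM in doxorubicin-resistant cells (-0.31, adjusted p = 0.121) at 1 µM, and EPCAM was called at no doxorubicin dose. The summed basal markers were lower beside ITGA6 in parental cells at 1 µM, at 372 to 386 CPM against 924 to 977 CPM in DMSO, and were 501 to 519 CPM in doxorubicin-resistant cells, overlapping the 484 to 509 CPM in DMSO. Of 7 basal markers tested, 5 were called lower and 0 higher in parental cells (median -1.13), against 75.8% of all genes. In doxorubicin-resistant cells 4 were called lower and 1 higher (median -0.24), against 39.1% of all genes, although the sum overlapped. At 1 µM the luminal sum was 4218 to 5044 CPM in parental and 4521 to 4637 CPM in doxorubicin-resistant cells, below DMSO in both, and the stromal, endothelial and immune sum was 33 to 37.7 and 36.3 to 43.2 CPM, above DMSO in both. The mesenchymal sum was 72.4 to 78 CPM in parental cells, above DMSO, and 36.5 to 37.4 CPM in doxorubicin-resistant cells, below DMSO. Of 6 mesenchymal genes tested, 2 were called higher and 2 lower in parental cells (median 0.30). In doxorubicin-resistant cells 2 were called higher and 1 lower (median 0.15), a median opposite in sign to the change of the sum. The part of these markers was not tested.

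Set side by side at 1 µM doxorubicin, 5 of 7 genes differed between doxorubicin-resistant and parental cells (3 higher, 2 lower), against 71.4% of all genes. CD44 and CD109 were lower, the latter by -3.25 ± 0.15 (adjusted p = 7.29e-15). PROM1 (1.19 ± 0.16, adjusted p = 3.38e-07), ALDH1A3 and ITGA6 (0.63 ± 0.12, adjusted p = 3.69e-05) were higher. ITGA6 was 0.41 (adjusted p = 0.00364) without replicate 1 of parental cells in 1 µM doxorubicin. The response to 1 µM itself differed for 4 of 7 genes, each with a more positive value in doxorubicin-resistant cells, against 58.3% of all genes. Both shares were near the background.

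Paclitaxel was tested in parental and paclitaxel-resistant cells, at 10 nM in both. At 10 nM ALDH1A3 rose while CD44 and ALDH1A1 fell in both lines, and PROM1 fell in parental cells. In parental cells 1 of 7 genes was called at 2.5 nM, lower, against 26.8% of all genes, and 4 of 7 at 10 nM (1 higher, 3 lower), against 48.2%. In paclitaxel-resistant cells 0 of 7 were called by limma at 6.5 nM, against 0.0942% of all genes. Without adjustment 1 of 7 was under 0.05, ALDH1A3 (unadjusted p = 0.0458, adjusted p = 0.828 in limma), and a voom fit to reads called 0 of 7. At 10 nM 3 of 7 were called (1 higher, 2 lower), against 13.6%.

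ALDH1A3 was 114 and 116 CPM in parental cells at 10 nM against 79 and 71.6 CPM in DMSO, a rise of 0.61 ± 0.08 (adjusted p = 8.44e-07). In paclitaxel-resistant cells it was 78.9 and 79.8 CPM against 49.5 and 48.9 CPM (0.68 ± 0.08, adjusted p = 1.91e-06). The rises did not differ at the threshold (0.07, 95% interval -0.15 to 0.29, adjusted p = 0.736). Lower doses gave 83.5 and 78.3 CPM in parental cells at 2.5 nM (0.10, adjusted p = 0.317) and 55.3 and 54.9 CPM in paclitaxel-resistant cells at 6.5 nM (0.16, adjusted p = 0.828).

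ALDH1A1 moved the other way. In parental cells it fell to 16.6 and 14.9 CPM at 2.5 nM (-0.51 ± 0.11, adjusted p = 0.00348) and to 9.86 and 10.7 CPM at 10 nM (-1.08 ± 0.11, adjusted p = 7.59e-08). In paclitaxel-resistant cells it was 28.7 and 28.6 CPM at 6.5 nM (-0.12, adjusted p = 0.996) and 24.1 and 20.7 CPM at 10 nM (-0.47 ± 0.11, adjusted p = 0.00716). All 4 libraries at 10 nM lay below their line's DMSO libraries, and the response differed between the lines by 0.61 ± 0.16 (adjusted p = 0.0165). The fall at 2.5 nM was lost without parental DMSO replicate 1 (-0.36, adjusted p = 0.124) or replicate 2 of that dose (-0.44, adjusted p = 0.075) and was -0.32 after correction for GC content and length, and the fall in paclitaxel-resistant cells was lost without DMSO replicate 1 (-0.46, adjusted p = 0.0648) or 10 nM replicate 2 (-0.37, adjusted p = 0.0955). The difference of responses was lost without any 1 of 5 libraries, namely parental DMSO replicate 1 (0.46, adjusted p = 0.0772), parental 10 nM replicate 1 (0.56, 0.0582), paclitaxel-resistant DMSO replicate 1 (0.62, 0.0522) or 2 (0.59, 0.0597), and paclitaxel-resistant 10 nM replicate 1 (0.50, 0.101).

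CD44 was 158 and 160 CPM in parental cells at 10 nM (-0.29 ± 0.09, adjusted p = 0.0131) and 48 and 47.6 CPM in paclitaxel-resistant cells (-0.44 ± 0.09, adjusted p = 0.00277). Both falls were small beside the gap between the lines, and they did not differ from each other at the threshold (-0.15, 95% interval -0.42 to 0.13, adjusted p = 0.532). The fall in parental cells was lost without parental DMSO replicate 2 (-0.27, adjusted p = 0.0547) or 10 nM replicate 1 (-0.29, adjusted p = 0.0563). At the lower doses CD44 was 181 and 187 CPM in parental cells (-0.09, adjusted p = 0.503) and 59 and 58.6 CPM in paclitaxel-resistant cells (-0.15, adjusted p = 0.982).

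PROM1 fell in parental cells at 10 nM to 0.867 and 0.49 CPM, from 21 and 10 reads (-0.60 ± 0.16, adjusted p = 0.00305). This was lost without 10 nM replicate 2 (-0.43, adjusted p = 0.0624) and was -0.96 with a pseudocount of 0.25 CPM and -1.14 in a fit to reads. At 2.5 nM it was 0.866 and 1.02 CPM (-0.38, adjusted p = 0.0732), which passed only without parental DMSO replicate 2 (-0.50, adjusted p = 0.0395). In paclitaxel-resistant cells PROM1 was 2.85 and 2.81 CPM at 10 nM (-0.24, adjusted p = 0.321). ITGA6 was 88.3 and 101 CPM in parental cells at 10 nM, above both DMSO libraries but not called (0.27, adjusted p = 0.0576), and it passed after correction for GC content and length (0.37, adjusted p = 3.63e-05), without parental DMSO replicate 1 or 10 nM replicate 1 (both 0.37, adjusted p = 0.0351 and 0.0401), under median-of-ratios scaling (0.30, adjusted p = 0.0392) and in a fit to reads (0.27, adjusted p = 0.049). EPCAM was 343 and 306 CPM at 2.5 nM (-0.18, adjusted p = 0.143), and -0.31 (adjusted p = 0.0254) without parental DMSO replicate 2. CD109 in paclitaxel-resistant cells at 10 nM was 21.2 and 19.4 CPM (-0.37, adjusted p = 0.0974), and passed with paclitaxel-resistant cells alone in the fit (-0.37, adjusted p = 0.00263) and in a fit to reads (-0.38, adjusted p = 0.0359).

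At 10 nM paclitaxel 5 of 7 genes differed between paclitaxel-resistant and parental cells (2 higher, 3 lower), against 49.7% of all genes. CD44 differed by -1.71 ± 0.09 (adjusted p = 9.32e-13) and ITGA6 by -0.67 ± 0.12 (adjusted p = 4.21e-05). PROM1 differed by 1.20 ± 0.16 (adjusted p = 1.01e-06), or 2.05 in a fit to reads, and ALDH1A1 by 1.05 ± 0.11 (adjusted p = 6.79e-08). The response to 10 nM itself differed for 1 of 7 genes, ALDH1A1, against 10.8% of all genes. Marker sums moved beside these genes at 10 nM, and their part was not tested. In parental cells the basal sum was 742 to 770 CPM against 924 to 977 CPM in DMSO, and the mesenchymal sum 38.8 to 43.5 against 63.2 to 64.8 CPM. Of 6 mesenchymal genes tested there, 2 were called higher and 2 lower, against 48.2% of all genes. Their median log2 fold change was 0.35, opposite in sign to the change of the sum. The luminal sum there was 4637 to 5026 against 5543 to 6760 CPM, and the stromal, endothelial and immune sum 40.3 to 44.8 against 24.8 to 27 CPM. In paclitaxel-resistant cells the basal sum was 432 to 441 against 580 to 584 CPM, the luminal sum 4095 to 4277 against 4716 to 4855 CPM, the mesenchymal sum 11.2 to 17.4 against 16.8 to 18.6 CPM, and the stromal, endothelial and immune sum 19.5 to 22.3 against 17.7 to 18.4 CPM. Of these sums the mesenchymal one in paclitaxel-resistant cells overlapped its DMSO range.

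**Figure D4:**
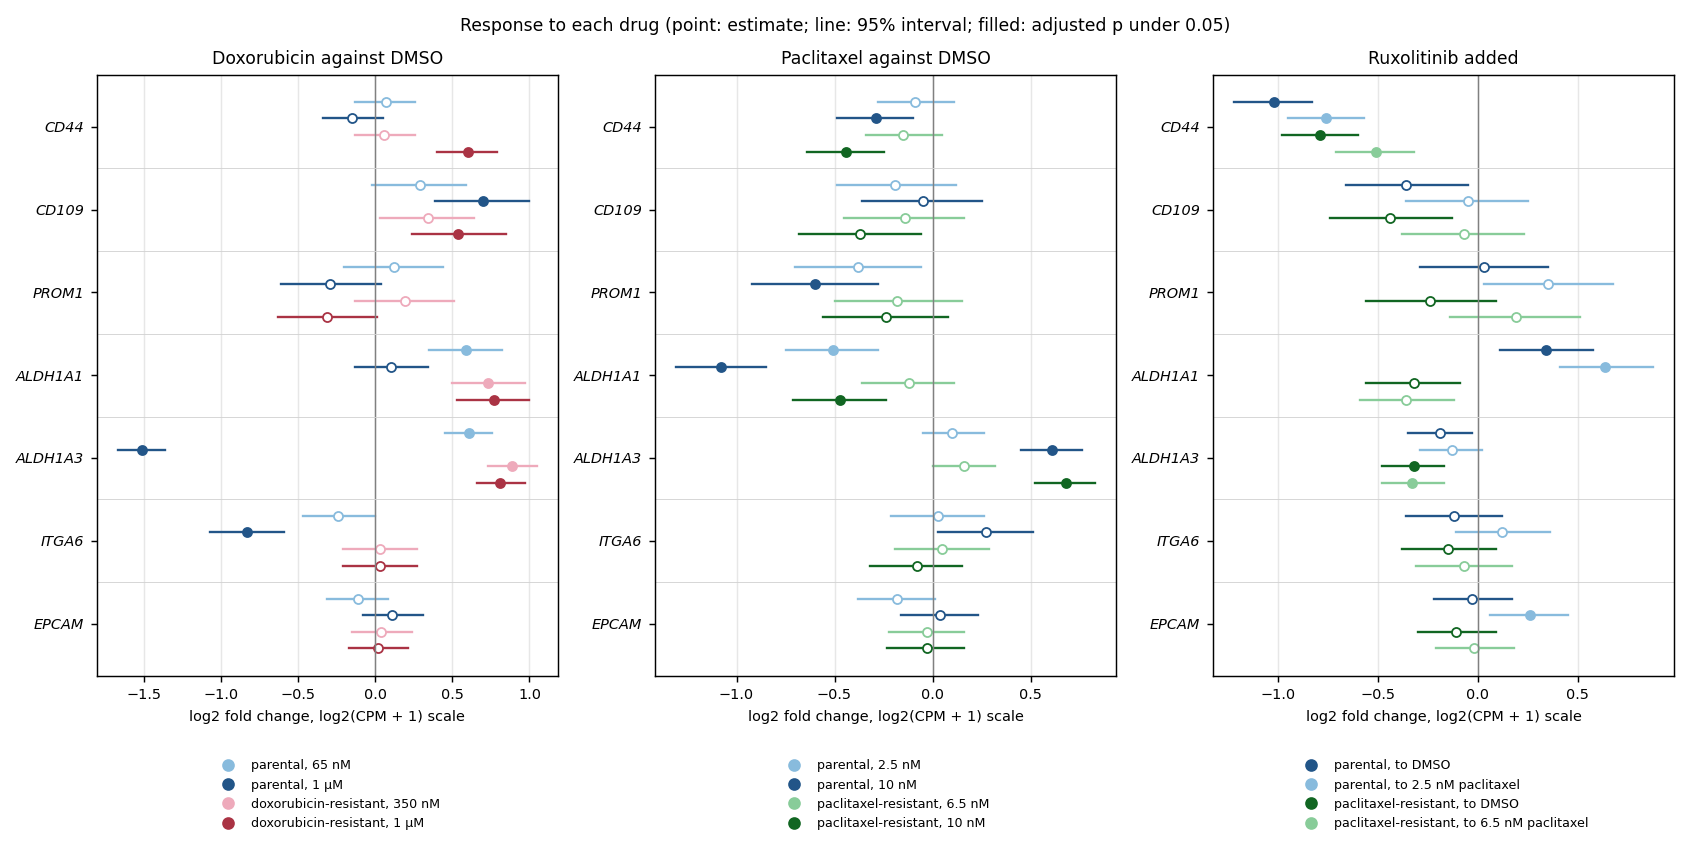
Responses of the 7 genes to doxorubicin, paclitaxel and ruxolitinib within each line. The horizontal axis is the log2 fold change on the log2(CPM + 1) scale (the scale differs between panels), points are estimates, lines are 95% intervals, and filled points passed an adjusted p of 0.05. ALDH1A3 fell to -1.51 in parental cells at 1 µM doxorubicin and rose by 0.81 in doxorubicin-resistant cells. CD44 lay between -1.02 and -0.51 in all 4 ruxolitinib contrasts, which differ in labelled dose.

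Ruxolitinib addresses what JAK inhibition does in each state, alone and on top of paclitaxel, and CD44 was the gene that fell in each of these contrasts. In parental cells 2 of 7 genes were called with ruxolitinib alone (1 higher, 1 lower), against 13.2% of all genes, and 3 of 7 when it was added to 2.5 nM paclitaxel (2 higher, 1 lower), against 27.9%. In paclitaxel-resistant cells 2 of 7 were called with ruxolitinib alone, both lower, against 6.92%, and 2 of 7 when it was added to 6.5 nM paclitaxel, both lower, against 3.28%.

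CD44 in parental cells was 97 and 94.3 CPM with ruxolitinib against 193 and 198 CPM in DMSO, a 2.04-fold fall (-1.02 ± 0.09, adjusted p = 4.81e-08). With 2.5 nM paclitaxel it was 103 and 113 CPM with ruxolitinib and 181 and 187 CPM without (-0.76 ± 0.09, adjusted p = 7.17e-06). No library with ruxolitinib, at either labelled dose, reached the lowest library without it in either line. In paclitaxel-resistant cells CD44 was 35.8 and 38.9 CPM with ruxolitinib against 65.1 and 65.4 CPM (-0.79 ± 0.09, adjusted p = 5.07e-06), and 38.6 and 43.3 CPM against 59 and 58.6 CPM when added to 6.5 nM paclitaxel (-0.51 ± 0.09, adjusted p = 0.0019). The last was lost without replicate 1 of the combination (-0.43, adjusted p = 0.0757). The response to ruxolitinib alone did not differ between the lines at the threshold (0.23, 95% interval -0.04 to 0.51, adjusted p = 0.856). With ruxolitinib paclitaxel-resistant cells still had 2.56-fold less CD44 than parental cells (-1.33 ± 0.09, adjusted p = 1.13e-10). Genes on the basal and mesenchymal lists moved beside CD44. The basal sum was 528 to 540 CPM with ruxolitinib in parental cells and 402 CPM in both paclitaxel-resistant libraries, against 924 to 977 and 580 to 584 CPM in DMSO, with 5 and 6 of 7 tested called lower and 0 higher (medians -0.58 and -0.64). The mesenchymal sum was 26.2 to 26.3 CPM with ruxolitinib in parental cells and 11.5 to 13.4 CPM in paclitaxel-resistant cells, against 63.2 to 64.8 and 16.8 to 18.6 CPM in DMSO, with 4 and 1 of 6 tested called lower and 0 higher (medians -0.77 and -0.25). Over all genes tested 13.2% were called with ruxolitinib in parental and 6.92% in paclitaxel-resistant cells. The 1 mesenchymal call in paclitaxel-resistant cells does not set that list apart. The part of either list was not tested.

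ALDH1A1 rose with ruxolitinib in parental cells and was lower, without passing the test, in paclitaxel-resistant cells. In parental cells it was 28.3 and 30.1 CPM with ruxolitinib (0.34 ± 0.11, adjusted p = 0.0483), and 24.8 and 25.3 CPM when ruxolitinib was added to 2.5 nM paclitaxel against 16.6 and 14.9 CPM (0.64 ± 0.11, adjusted p = 0.000431). In paclitaxel-resistant cells it was 26.4 and 23.3 CPM against 31.7 and 31 CPM in DMSO (-0.32, adjusted p = 0.095) and 25.2 and 19.5 CPM in the combination (-0.36, adjusted p = 0.0986). Neither was called, though both passed in a fit of paclitaxel-resistant cells alone (adjusted p = 0.0429 and 0.0454) and after correction for GC content and length (adjusted p = 0.0402 and 0.00288). The difference of the responses to ruxolitinib alone was -0.67 ± 0.16 (unadjusted p = 0.000387, adjusted p = 0.0726), and it passed after correction for GC content and length (-0.61, adjusted p = 0.00344) and without parental DMSO replicate 1 (-0.82, adjusted p = 0.0165). The single-agent rise in parental cells was lost without parental DMSO replicate 2 (0.19, adjusted p = 0.389), without ruxolitinib replicate 1 (0.38, adjusted p = 0.12) or 2 (0.30, adjusted p = 0.263), with no filter (adjusted p = 0.0917) and with a fit of parental cells alone (adjusted p = 0.119). In paclitaxel-resistant cells the difference in the combination passed without replicate 1 of the combination (-0.53, adjusted p = 0.0359). Between the lines, 0 of 7 responses to ruxolitinib alone were called by limma, against 0.408% of all genes, while 1 of 7 had an unadjusted p under 0.05 and a voom fit called 0.

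ALDH1A3 was lower with ruxolitinib in paclitaxel-resistant cells, at 39.1 CPM in both libraries against 49.5 and 48.9 CPM (-0.32 ± 0.08, adjusted p = 0.00893) and at 43 and 44.5 CPM in the combination against 55.3 and 54.9 CPM (-0.33 ± 0.08, adjusted p = 0.0149). The groups were well apart, yet the first call was lost on leaving out either library of either group (adjusted p = 0.0684 to 0.0897), and so was the second (adjusted p = 0.076 to 0.176). In parental cells ALDH1A3 was 66.5 and 65.3 CPM with ruxolitinib (-0.19, adjusted p = 0.106). CD109 was 14.2 and 12.4 CPM in parental cells (-0.36, adjusted p = 0.119) and 19.4 and 19.3 CPM in paclitaxel-resistant cells (-0.44, adjusted p = 0.082), and both passed after correction for GC content and length (-0.41 and -0.39, adjusted p = 0.00748 and 0.0183). The latter also passed with paclitaxel-resistant cells alone in the fit (-0.44, adjusted p = 0.00123) and in a fit to reads (-0.46, adjusted p = 0.0259). EPCAM was 412 and 365 CPM in the parental combination against 343 and 306 CPM with paclitaxel alone (0.26 ± 0.09, adjusted p = 0.0437). That was its 1 call in the study, and it was lost without paclitaxel replicate 2 (0.17, adjusted p = 0.335), without combination replicate 1 (0.17, adjusted p = 0.385), under median-of-ratios scaling (adjusted p = 0.0587), with no filter (adjusted p = 0.0806) and with a fit of parental cells alone (adjusted p = 0.144). ITGA6 and PROM1 were called in no ruxolitinib contrast within a line.

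With ruxolitinib in both lines, 5 of 7 genes differed between paclitaxel-resistant and parental cells (2 higher, 3 lower), against 28.9% of all genes. ALDH1A3 differed by -0.74 ± 0.08 (adjusted p = 6.54e-08), CD109 by 0.52 ± 0.15 (adjusted p = 0.0101), PROM1 by 0.58 ± 0.16 (adjusted p = 0.00645) and ITGA6 by -0.34 ± 0.12 (adjusted p = 0.0273). CD109 did not pass without parental ruxolitinib replicate 2 (0.42, adjusted p = 0.112) or either paclitaxel-resistant ruxolitinib replicate (adjusted p = 0.0562 and 0.0522). PROM1 did not pass without parental ruxolitinib replicate 2 (0.43, adjusted p = 0.114) or paclitaxel-resistant replicate 2 (0.55, adjusted p = 0.051), and ITGA6 did not pass without any 1 of the 4 libraries (adjusted p = 0.0684 to 0.155) or with no filter (adjusted p = 0.0697).

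Across the 15 group means, which share lines and vehicle groups and are given only as a description, CD44 and PROM1 ran most oppositely of the 21 pairs of these genes (Pearson r = -0.917 on the log2 scale). ALDH1A3 and ITGA6 were the most alike pair (0.75), followed by CD44 and CD109 (0.689), while CD44 and ALDH1A1 had an r of -0.016. Among 6786 other tested genes with a range of at least 1 in group means, those most like CD44 were the homeobox gene NKX1-2 (0.966), the focal adhesion gene PXN (0.951) and the nuclear receptor PPARG (0.931). PXN ranged from 92.1 to 241 CPM, whereas NKX1-2 and PPARG reached at most 2.8 and 1.98 CPM. Those most like CD109 were the co-chaperone DNAJA2 (0.979), B3GNT9 (0.977) and its neighbour MB21D1 (0.975). PROM1 was most like PLA2R1 (0.954), SLC9A2 (0.953) and the translation initiation factor gene EIF2S3 (0.953), ALDH1A3 most like RPTN (0.909), ITGA6 most like ANO6 (0.929) and ALDH1A1 most like SPC24 (0.833).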

How the data were processed

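RNA-seq was available for 30 libraries of SUM190 cells in 15 groups of 2. The deposited table holds, for 20114 gene symbols, log2(CPM + 1) values from the authors, with CPM scaled between libraries by the trimmed mean of M-values (TMM), as its deposited values and name show. STAR 2.5.1b, edgeR and the GRCh37 (hg19) build are named in the submitters' processing notes. What annotation, read counter and strand setting were used is not given in the sources used here. Every value was a whole multiple of 1 read within 0.01, which gave the depths of 18443749 to 32669995 reads per library.

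Genes with at least 1 CPM in at least 2 libraries (12743) were fitted whole, as deposited, with limma 3.58.1 in R 4.3.3 (means of 15 groups, 1 spread per gene over all groups, 15 residual degrees of freedom, mean trend and robust moderation, two-sided, Benjamini-Hochberg over all genes tested, called under 0.05). This was done for 21 comparisons, of which 3 were differences of responses. Tables and plots used Python 3.11.15, pandas 2.3.3 and matplotlib 3.10.9. The steps were tested on simulated data. The 8 genes and the 11 lists (156 genes, 124 tested) were chosen with earlier results of these data known. List genes were named if called with a log2 fold change of at least 1 in either direction between lines in DMSO, or else as the 3 largest of a list. Some genes that this rule names are not reported here. The 3 genes most like each gene were those with the highest Pearson r, and neighbours named singly were chosen after their values were seen. Gene positions are from GENCODE and start-site sequences from RefSeq, both on GRCh38, not the authors' build. Results were recomputed with 0.25 CPM as pseudocount, without the filter, with median-of-ratios scaling, with the replicate number as a block, with only the compared lines in the fit, with limma voom on the recovered reads, after removing trends with GC content and transcript length, and without each library in turn. Where 1 library of a group was left out, the other was assumed to vary like the remaining groups.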

Additional observations from a re-analysis of the deposited data

Results flagged for a closer look

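Responses to 1 µM doxorubicin differed between doxorubicin-resistant and parental cells, by the test of the difference itself in limma, for 4 of the 7 genes. The difference, resistant minus parental, was 2.33 on the log2 scale for ALDH1A3 (adjusted p = 8.88e-14), which fell in both parental libraries and rose in both resistant ones. It was 0.86 for ITGA6 (adjusted p = 9.56e-05), which fell in parental cells and was not called in resistant cells. For CD44 it was 0.74 (adjusted p = 5.07e-05), with both resistant libraries above their DMSO pair. For ALDH1A1 it was 0.66 (adjusted p = 0.00116), with both resistant libraries above their DMSO pair and the parental values overlapping. At this dose 58.3% of all genes tested differed in response between the lines, so the share of 4 of 7 was near the background.

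Responses to 10 nM paclitaxel differed between paclitaxel-resistant and parental cells for ALDH1A1, by 0.61 (adjusted p = 0.0165). The gene fell in both lines, and more in parental cells. Over all genes tested 10.8% differed in this response, and the call for ALDH1A1 was lost on leaving out any 1 of 5 of the 8 libraries (0.46 to 0.62, adjusted p = 0.0522 to 0.101).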

How the results depend on the processing

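Of 147 differences tested for the 7 genes, 62 were called, and 45 of these kept their direction and call under every alternative run. Of 886 values under alternatives, 805 stayed on the same side of the threshold with the same direction, 48 lost the call, 29 gained it and 4 changed sign, the last all among differences that were not called. In 1 µM doxorubicin the doxorubicin-resistant against parental value of ALDH1A1 went from 0.05 to -0.02 under median-of-ratios scaling and to -0.04 and 0.14 without parental replicate 1 or 2, and that of EPCAM from 0.04 to -0.04 under the scaling and to -0.03 and 0.11 without these, whereas after correction for GC content and length both were called higher (0.20 and 0.22). The response of ITGA6 to 10 nM paclitaxel differed between lines after that correction (-0.40, adjusted p = 0.00261). The cause was not tested.

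The number of the 7 genes called with ruxolitinib fell to 1 in parental cells with no filter and with parental cells alone in the fit. In the latter fit the calls over all 12743 genes went from 1685 to 775. The number rose to 4 in paclitaxel-resistant cells with that line alone and after the GC correction. There the calls over all genes also rose, from 882 to 2102 with that line alone and to 2014 of 12642 after the correction. After the GC correction the 10 nM paclitaxel responses differed for 2 of the 7 genes and the ruxolitinib responses for 1. Over all genes these responses differed for 3434 in place of 1370 and for 264 in place of 52. The changes in number thus do not set the 7 genes apart. Counts over all genes for the fits that left out 1 library are in the next paragraph. Leaving out 1 library gave 0 to 3 genes for 2.5 nM paclitaxel and 1 to 2 for ruxolitinib in parental cells, 1 for ruxolitinib and 1 for the combination in paclitaxel-resistant cells, 2 to 4 between those lines in ruxolitinib, and 0 to 1 for the differences of the paclitaxel and of the ruxolitinib responses. Whether replicate numbers pair the samples was not settled. The differences between replicates correlated between groups at -0.689 to 0.65 over 105 pairs of groups, 30 of them over 0.1. In several groups these differences also followed GC content, so the correlations cannot decide whether same-numbered libraries belong together. The replicate block left each count of the 7 genes as it was, for example 5 between doxorubicin-resistant and parental cells.

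Counts over all genes moved by more than 1.5 times in 63 of 243 cases. With only the compared lines in the fit, parental counts went from 3414 to 1000 (2.5 nM paclitaxel), 1421 to 461 (65 nM doxorubicin), 1685 to 775 (ruxolitinib) and 3561 to 1428 (combination), and paclitaxel-resistant counts from 12 to 114 (6.5 nM), 1735 to 3745 (10 nM), 882 to 2102 (ruxolitinib) and 418 to 1047 (combination). The GC correction gave 5377 in place of 3505 (doxorubicin-resistant against parental), 2863 (65 nM), 3548 (ruxolitinib, parental), 1819 in place of 486 (350 nM), 111, 3622, 2014 and 1321 for the 4 paclitaxel-resistant treatments, 5524 in place of 3677 (lines in ruxolitinib), 3434 in place of 1370 (paclitaxel responses) and 264 in place of 52 (ruxolitinib responses). Voom called 5 genes at 6.5 nM. There, median-of-ratios scaling moved the share called higher from 75.0% of 12 genes to 61.5%. Leaving out 1 library gave as few as 2280 genes between doxorubicin-resistant and parental cells, 476 to 5172 at 2.5 nM, 240 to 2527 at 65 nM, 751 to 1727 for ruxolitinib and 736 to 3618 for the combination in parental cells, 130 to 264 at 350 nM, 1 to 4, 696 to 1135, 358 to 407 and 141 to 172 for the paclitaxel-resistant treatments, 2421 to 2570 between lines in ruxolitinib, 639 to 1573 for the paclitaxel and 25 to 92 for the ruxolitinib responses. Depth limited PROM1 most, with 10 reads in its lowest library.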
